A study of Mus musculus with 9 samples.

Results

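Gene expression was compared between splenic monocytic myeloid-derived suppressor cells (Mo-MDSCs) from wild-type (WT) mice and Mo-MDSCs from mice labelled p16/p21 double knockout (p16/p21-DKO). The comparison covered 6 of the 9 RNA-sequencing libraries of the study, 3 per genotype, and 11451 of the 23284 genes listed, namely those with an FPKM (fragments scaled to transcript length and to library size) of at least 1 in at least 3 of the 6 libraries. The other 3 libraries, polymorphonuclear MDSCs (PMN-MDSCs) from WT mice, were used as a reference level. They entered no fit except the alternative with all 9 samples. All mice carried a spindle cell tumour (SCT) allograft, grown from a line that had been made from a chemically treated mouse lacking p16, so the host genotype differed between the groups but the tumour line did not. The strain was labelled C57BL/6J for WT and C57BL/6 for p16/p21-DKO, and both groups carry an age label of 3 weeks, a time that the study's methods give as the interval from SCT injection to cell isolation. Mo-MDSCs were taken from spleen with a magnetic kit as Ly6G-negative Gr-1-positive cells. The knockout was present in the whole animal, and neither the number of mice behind each library nor pooling is stated, so p-values here measure only the spread between these libraries.

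MDSCs are immature myeloid cells that accumulate in tumour-bearing animals and restrain T cells, in part through reactive oxygen, arginine depletion and heme oxygenase. Mo-MDSCs resemble classical Ly6C-high monocytes, whereas PMN-MDSCs resemble neutrophils. p16 (from Cdkn2a) and p21 (from Cdkn1a) bind cyclin-dependent kinases (CDKs), hold RB in its growth-restraining state and are known as brakes on the cell cycle and as markers of senescence.

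The 2 genes named as deleted were examined first. Cdkn2a was near the limit of detection, at 0.718, 0.772 and 0.432 FPKM in WT Mo-MDSCs and at 0.258 and 0.586 FPKM in 2 libraries labelled p16/p21-DKO, and it was listed at 0 in the third. The groups overlapped, and the gene did not pass the filter on low values (exact permutation test, 2-sided, p = 0.2, where 0.1 is the smallest p that 3 against 3 allows). Cdkn1a stood at 8.18, 6.46 and 8.04 FPKM in WT libraries and at 5.55, 8.52 and 6.00 FPKM in libraries labelled p16/p21-DKO. These groups overlapped as well, with the highest value of all 6 in a library labelled p16/p21-DKO (limma, log2 fold change -0.19 ± 0.18, adjusted p = 0.637; exact permutation p = 0.5). One FPKM value per gene cannot show which exons the reads came from, Cdkn2a also encodes Arf, and reads outside a deleted stretch check nothing. The deletion was thus not seen at gene level, and "labelled DKO" is used below for these libraries, including wherever a direction is given.

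The sorted cells carried monocyte RNA in both groups. Ccr2, the receptor that draws monocytes from marrow, was at 281 to 362 FPKM in WT and at 160 to 202 FPKM in labelled DKO libraries, against 2.36 to 2.51 FPKM in PMN-MDSCs. F13a1, a coagulation factor made by monocytes, was at 134 to 194 FPKM in the 6 Mo-MDSC libraries and at 0.772 to 1.13 FPKM in PMN-MDSCs. Csf1r, the receptor for macrophage colony-stimulating factor, did not separate the cell types, with 751 to 919 FPKM in Mo-MDSCs and 674 to 841 FPKM in PMN-MDSCs. RNA of other spleen cells was present in every Mo-MDSC library. The neutrophil gene S100a8 stood at 2307 to 23349 FPKM. The keratinocyte genes Krt5 and Krt14 were listed at 0 throughout. In bulk RNA, fewer cells of a type and less RNA per cell cannot be told apart.

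By the cut-off that the study used for lower genes (labelled DKO over WT under 0.75, and p before adjustment under 0.05), with its inverse used here for higher genes, 507 genes were called lower in labelled DKO Mo-MDSCs, 4.43% of those tested, and 294 were called higher, 2.57%. With Benjamini-Hochberg adjustment over all 11451 genes (limma, adjusted p below 0.05), 10 genes fell, 0.0873%, and 19 rose, 0.166%. In all 29 the WT and labelled DKO values did not overlap, whereas 20.8% of all genes tested had groups that did not overlap. In what follows "rose" and "fell" are kept for these 29 genes, "called" refers to the unadjusted cut-off, and errors beside log2 fold changes are standard errors with n = 3 libraries per group. The median log2 fold change over all genes was -0.02 and the median standard error 0.12.

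**Figure D1:**
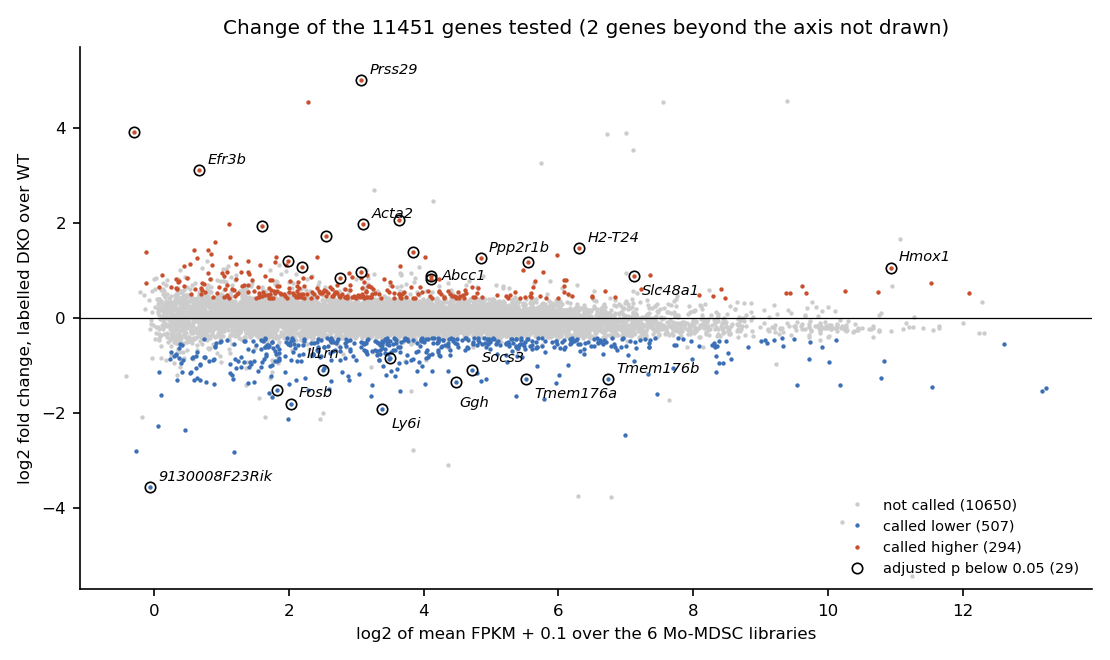
Change of each tested gene (vertical axis, log2 fold change of labelled DKO over WT Mo-MDSCs) against its mean level (horizontal axis, log2 of mean FPKM + 0.1 over 6 libraries). Blue points are the 507 genes called lower, red points the 294 called higher and black rings the 29 genes with an adjusted p below 0.05; 2 genes lie beyond the vertical axis.

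Among the genes that fell were a transcription factor, an interleukin antagonist and a cytokine-signalling inhibitor. Fosb, a partner of JUN in the AP-1 transcription factor, was at 6.56, 7.06 and 5.04 FPKM in WT and at 2.25, 1.38 and 1.56 FPKM in labelled DKO libraries, so that the lowest WT value was above the highest labelled DKO value (log2 fold change -1.80 ± 0.21, limma adjusted p = 0.0261). Il1rn, which encodes the antagonist that occupies the IL-1 receptor without signalling, was at 8.18, 6.31 and 8.53 FPKM in WT and at 3.54, 3.34 and 3.59 FPKM in labelled DKO libraries (-1.10 ± 0.14, adjusted p = 0.0299). The study itself reported similar Il1rn expression in MDSCs of both genotypes. Socs3, the feedback inhibitor of JAK and STAT3 signalling downstream of IL-6 and G-CSF, was at 32.5, 38.2 and 35.7 FPKM in WT and at 14.6, 20.1 and 15.3 FPKM in labelled DKO libraries (-1.10 ± 0.13, adjusted p = 0.0278). Levels of these genes in the 2 cell types differed widely. PMN-MDSCs held 71.1 to 85.5 FPKM of Il1rn and 170 to 257 FPKM of Socs3, both above every Mo-MDSC library, but only 2.05 to 4.22 FPKM of Fosb.

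Membrane proteins and enzymes made up most of the other genes that fell. Tmem176b, a multi-pass membrane protein of dendritic cells and monocytes, was at 144, 149 and 157 FPKM in WT and at 54.5, 69.7 and 61.7 FPKM in labelled DKO libraries (-1.28 ± 0.10, adjusted p = 0.00491). Its neighbour Tmem176a moved by the same amount, from 58.8, 72.4 and 64.0 FPKM to 23.4, 31.3 and 25.6 FPKM (-1.28 ± 0.13, adjusted p = 0.0196). These genes lie head to head on chromosome 6, and their RefSeq start sites, 48841483 on the plus strand and 48841374 on the minus strand (GRCm38.p6), leave 108 bases that are upstream of both. Ggh, the lysosomal hydrolase that shortens folate polyglutamates, was at 36.5, 27.3 and 31.5 FPKM in WT and at 14.6, 12.5 and 10.2 FPKM in labelled DKO libraries (-1.35 ± 0.16, adjusted p = 0.0261). Padi2, which converts protein arginine to citrulline, fell from 13.6 to 16.1 FPKM in WT to 7.31 to 8.35 FPKM in labelled DKO libraries (-0.85 ± 0.11, adjusted p = 0.03). Ly6i, of the Ly6 family of surface antigens, fell by 1.91 ± 0.25 (adjusted p = 0.0355) and Bex6 by 1.52 ± 0.20 (adjusted p = 0.0323) on the log2 scale. Reads of Ly6i could be split among near-identical relatives, so its value is uncertain. The transcript 9130008F23Rik was at 1.56 to 1.75 FPKM in WT libraries, at 0.0850 and 0.0781 FPKM in labelled DKO replicates 1 and 3, and listed at 0 in replicate 2.

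The genes that rose included genes of heme handling, efflux transport and signalling. Hmox1, heme oxygenase 1, which opens the heme ring to release iron, was at 1242, 1262 and 1267 FPKM in WT and at 2832, 2844 and 2233 FPKM in labelled DKO libraries (1.06 ± 0.13, limma adjusted p = 0.0299). Slc48a1, the transporter that moves heme out of the lysosome towards it, was at 92.9, 106 and 93.7 FPKM in WT and at 190, 189 and 160 FPKM in labelled DKO libraries (0.88 ± 0.10, adjusted p = 0.0261). For both genes the third labelled DKO library was the lowest of its group but still above all WT libraries. Abcc1, the multidrug resistance-associated protein 1 that exports glutathione conjugates and leukotriene C4, was at 12.7, 11.1 and 12.3 FPKM in WT and at 20.4, 23.8 and 22.9 FPKM in labelled DKO libraries (0.89 ± 0.10, adjusted p = 0.0261). PMN-MDSCs were below both groups for this gene, at 7.54 to 8.72 FPKM. Ppp2r1b, a scaffold subunit of protein phosphatase 2A, was at 15.995, 17.7 and 16.99 FPKM in WT and at 37.8, 41.2 and 42.3 FPKM in labelled DKO libraries (1.25 ± 0.08, adjusted p = 0.00241).

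**Figure D2:**
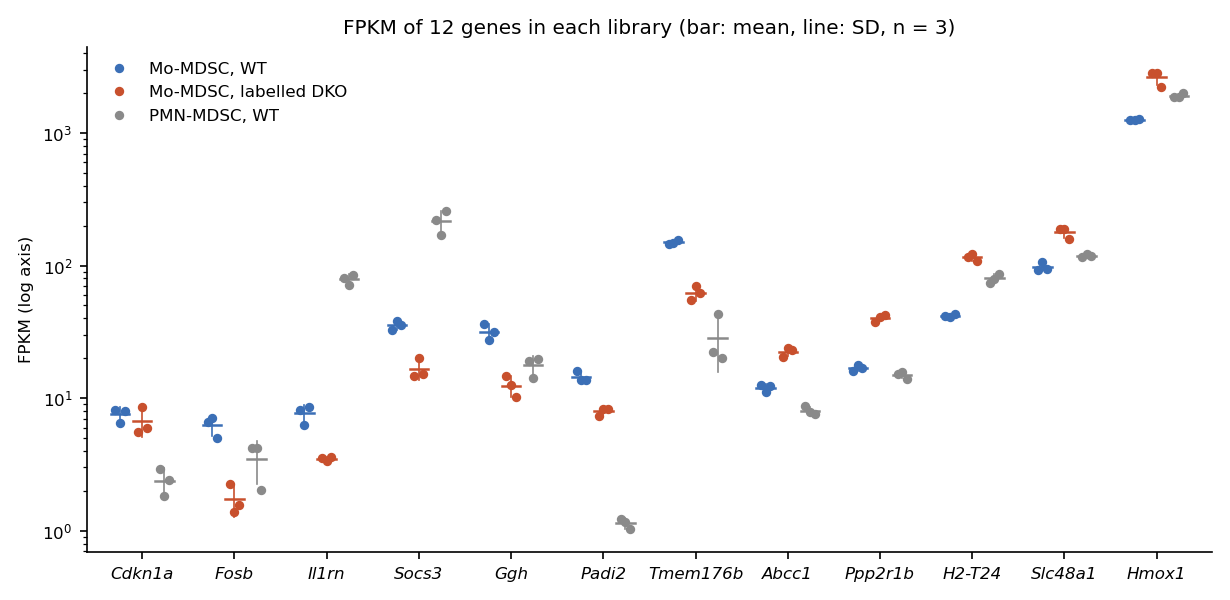
FPKM (log axis) of 12 genes in each library, with WT Mo-MDSCs in blue, labelled DKO Mo-MDSCs in red and WT PMN-MDSCs in grey; horizontal bars are means and vertical lines SDs of 3 libraries. Cdkn1a overlaps between the Mo-MDSC groups at 5.55 to 8.52 FPKM, whereas the other 11 genes do not overlap between them.

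Further genes rose. Trpv4, a calcium-permeable cation channel, rose from 2.63 to 3.03 FPKM in WT to 5.80 to 6.60 FPKM in labelled DKO libraries (1.08 ± 0.12, adjusted p = 0.0261). Clec16a, which takes part in mitophagy and endosomal traffic, rose by 0.84 ± 0.10 and Tmem64 by 0.96 ± 0.12 (adjusted p = 0.0261 for each). Acta2, smooth muscle actin, was at 5.22, 2.88 and 2.42 FPKM in WT and at 13.5, 14.3 and 12.5 FPKM in labelled DKO libraries (1.98 ± 0.25, adjusted p = 0.0315). Acta2 was the only called member among 5 tested markers of stromal and endothelial cells. WT PMN-MDSCs held 14.4 to 18.3 FPKM of Acta2, above every WT Mo-MDSC library. The summed level of the 14 listed markers was 57.4 to 67.6 FPKM in WT and 81.6 to 86.4 FPKM in labelled DKO libraries. In PMN-MDSC libraries it was 90.7 to 95.9 FPKM. All 5 had a log2 fold change above 0, with a median of 0.93. Within the later library series (replicates 2 and 3 of each group, grouped here by library number) 3 were called higher. Without WT replicate 2 or labelled DKO replicate 2, 2 were called higher. Col1a1, a collagen chain, was at 0.554 to 3.96 FPKM in WT and 2.36 to 5.92 FPKM in labelled DKO libraries, which overlapped. The part of stromal RNA in the Acta2 value was not tested.

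Of the 29 genes, 9 lay on chromosome 17, the chromosome of Cdkn1a, and 3 on chromosome 4, that of Cdkn2a. Chromosome 16 also held 3, of 358 genes tested, against 693 tested on chromosome 4. On chromosome 17, 47 genes were called lower and 34 higher of 625 tested, together 13%, against 4.86% to 9.23% on the other autosomes. Within 10 Mb of Cdkn1a (mm10, chromosome 17, 29090976 to 29100727, plus strand) the called share was 16.7% of 330 genes. H2-T24, a non-classical MHC class I gene 6.91 Mb from Cdkn1a, was at 41.4, 41.0 and 43.0 FPKM in WT and at 117, 123 and 108 FPKM in labelled DKO libraries (1.47 ± 0.08), and its adjusted p of 0.00147 was the smallest of all genes. Its relative H2-T10 rose by 1.40 ± 0.11 (adjusted p = 0.00491). Glo1, which detoxifies methylglyoxal with glutathione and lies 1.49 Mb from Cdkn1a, was at 25.2, 35.1 and 25.9 FPKM in WT and at 56.8, 72.4 and 65.7 FPKM in labelled DKO libraries (1.18 ± 0.15, adjusted p = 0.0299). Its neighbour Dnahc8, an axonemal dynein chain, rose by 1.94 ± 0.23 (adjusted p = 0.0261).

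The remaining chromosome 17 genes were low in WT cells. Prss29, a tryptase-family protease, stood at 0.0948, 0.764 and 0.640 FPKM in WT and at 19.001, 15.7 and 13.5 FPKM in labelled DKO libraries (5.00 ± 0.52, adjusted p = 0.0211). Gm8801 was listed at 0 in all 3 WT libraries and was at 1.05, 1.65 and 1.56 FPKM in labelled DKO libraries. The transcripts 9030025P20Rik and 3110052M02Rik rose by 1.74 ± 0.13 and 1.196 ± 0.16 (adjusted p = 0.00367 and 0.0355). Near-identical copies are known for H2-T genes and predicted genes, so reads could be split among them. Rab44, 0.023 Mb from Cdkn1a and singled out after its values were seen, was called lower without passing the adjusted test, with 15.3, 11.5 and 23.7 FPKM in WT and 6.72, 7.66 and 6.33 FPKM in labelled DKO libraries (-1.21 ± 0.24, adjusted p = 0.125). On chromosome 4, Ggh, Padi2 and Tmem64 lay 69.2, 51.6 and 74.0 Mb from Cdkn2a, and 2 of 32 genes within 10 Mb of Cdkn2a were called. The effect of deletion and that of chromosome segments carried with it cannot be told apart in these groups. Outside both chromosomes, Efr3b, a membrane anchor for a phosphoinositide kinase, rose from 0.160 to 0.293 FPKM to 1.38 to 4.18 FPKM (3.11 ± 0.43, adjusted p = 0.0451), and the transcripts Gm10653 and 4930506M07Rik rose by 2.06 ± 0.13 and 0.83 ± 0.11 (adjusted p = 0.00188 and 0.0451).

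**Figure D3:**
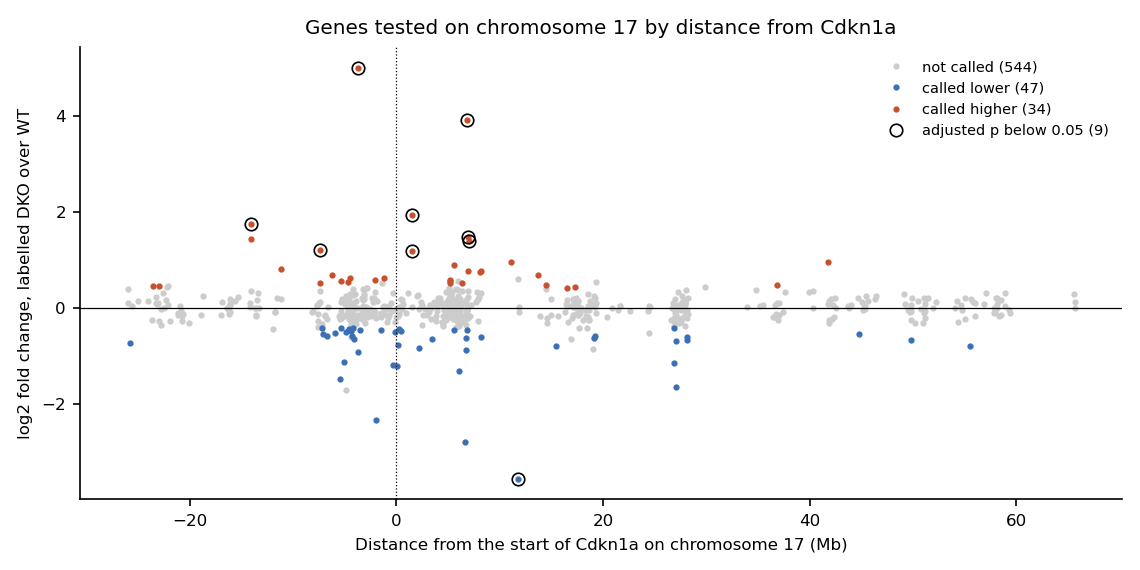
Log2 fold change of labelled DKO over WT Mo-MDSCs (vertical axis) for the 625 tested genes of chromosome 17 against their distance in Mb from the start of Cdkn1a (horizontal axis, dotted line at 0). Blue marks the 47 genes called lower, red the 34 called higher and black rings the 9 with an adjusted p below 0.05, which lie 1.49 to 14.1 Mb from Cdkn1a.

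Genes were next read by function in 46 lists, which together held 103 of the 507 genes called lower and 43 of the 294 called higher. Counts in a list are given against the background of 4.43% called lower and 2.57% called higher, and no test was run on a list.

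Neutrophil granule genes held the largest share of called members. Of 15 genes for secondary and tertiary granule proteins, 12 were called lower and 1 higher, with a median log2 fold change of -0.95. Ngp, the neutrophilic granule protein, was at 3337, 2350 and 7617 FPKM in WT and at 1358, 2155 and 996 FPKM in labelled DKO libraries (-1.45 ± 0.44, adjusted p = 0.224). Ltf, the iron-binding lactoferrin, was at 865, 575 and 1856 FPKM in WT and at 348, 544 and 261 FPKM in labelled DKO libraries (-1.41 ± 0.43, adjusted p = 0.222). WT replicate 3 was the highest and labelled DKO replicate 3 the lowest library for both genes, and WT replicate 2 lay just above labelled DKO replicate 2. Mmp8, neutrophil collagenase, ran the other way, at 42.3, 50.2 and 55.2 FPKM in WT and at 76.0, 112 and 71.7 FPKM in labelled DKO libraries (0.79 ± 0.18, adjusted p = 0.156). Of 8 primary granule genes 3 were called lower, Elane, Prtn3 and Serpinb1a. Prtn3, proteinase 3, was at 15.7, 16.2 and 23.4 FPKM in WT and at 4.68, 8.96 and 5.598 FPKM in labelled DKO libraries (-1.54 ± 0.25, adjusted p = 0.0794). In PMN-MDSCs Prtn3 was at 1.24 to 6.23 FPKM. Prtn3 and Elane were lower there than in every WT Mo-MDSC library, whereas Serpinb1a overlapped between these cell types. The summed primary granule genes were higher in PMN-MDSCs, at 1507 to 2194 FPKM against 473 to 644 FPKM in WT Mo-MDSCs. Elane and Prtn3 were counted with the stem and progenitor markers below as well.

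Neutrophil markers were lower in part and shared members with these lists, with Ngp, Ltf, Camp, Cd177 and Mmp8 counted in both. Of 13 tested, 7 were called lower and 1 higher, and their summed FPKM was 30340, 18030 and 62220 in WT, 13370, 17280 and 7154 in labelled DKO and 101600 to 235700 in PMN-MDSC libraries. S100a8 and S100a9, the calprotectin subunits, made up most of this sum, and the median log2 fold change of the list was -0.91. The defining markers Csf3r and Cxcr2 were present in both groups and neither was called. Csf3r was at 54.3 to 91.1 FPKM in Mo-MDSCs against 1347 to 1580 FPKM in PMN-MDSCs, and Cxcr2 at 5.37 to 18.6 FPKM against 590 to 875 FPKM. The part of neutrophil RNA in the granule values was not tested. Without labelled DKO replicate 3, 6 secondary and tertiary granule genes and 3 neutrophil markers were called lower, while 12 neutrophil markers were without labelled DKO replicate 2, and 10 neutrophil markers and 5 primary granule genes were without WT replicate 2. Primary granule genes called lower numbered 2 or 3 without any other library. Within the later library series (replicates 2 and 3 of each group) 4 secondary and tertiary granule genes and 1 neutrophil marker were called lower.

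Genes of classical monocytes were lower as well. Of 26 tested, 15 were called lower and 2 higher, with a median log2 fold change of -0.51, and their summed FPKM was 14590 to 20850 in WT, 10710 to 13070 in labelled DKO and 6785 to 11570 in PMN-MDSC libraries. Among the 15, Hp and Chi3l3 were counted with the granule genes as well, and Klf4 with the immediate-early genes below. Hp was at 1066 to 1764 FPKM in PMN-MDSCs against 367 to 604 FPKM in WT Mo-MDSCs, whereas Chi3l3 overlapped between these cell types. Plac8, a small cysteine-rich protein of myeloid cells, was at 2500, 1907 and 2739 FPKM in WT and at 1327, 1438 and 1034 FPKM in labelled DKO libraries (-0.91 ± 0.18, adjusted p = 0.127). Ly6c2, which encodes the Ly6C antigen, was at 499, 357 and 614 FPKM in WT and at 260, 289 and 244 FPKM in labelled DKO libraries (-0.86 ± 0.19, adjusted p = 0.151). S100a4 was called lower as well (-0.87 ± 0.20, adjusted p = 0.158), at 883 to 1226 FPKM in WT, 445 to 705 FPKM in labelled DKO and only 16.8 to 24.5 FPKM in PMN-MDSC libraries. F13a1 was not called (-0.10 ± 0.14), and Cd14, the co-receptor for lipopolysaccharide, was called higher, at 38.0 to 47.5 FPKM in WT and 55.0 to 64.4 FPKM in labelled DKO libraries (0.46 ± 0.12, adjusted p = 0.178). Leaving out single libraries gave 11 to 18 classical monocyte genes called lower, and the later library series gave 11.

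Of 11 tested members of the Ms4a and Tmem176 families of multi-pass membrane proteins, 7 were called lower and none higher (median -0.59). Among the 7, Ms4a4c, Ms4a6b and Ms4a6c were counted with the classical monocyte genes as well, and Ms4a1, a B-cell gene, had a log2 fold change of 0.26. Ms4a6b was at 187, 131 and 178 FPKM in WT and at 98.3, 107 and 81.2 FPKM in labelled DKO libraries (-0.78 ± 0.16, adjusted p = 0.132), and Ms4a6c at 425, 327.1 and 407 FPKM against 279, 275 and 214 FPKM (-0.59 ± 0.15, adjusted p = 0.172). The family was lower in PMN-MDSCs than in either Mo-MDSC group, with a sum of 421 to 513 FPKM against 1086 to 1373 FPKM in WT and 790 to 916 FPKM in labelled DKO libraries. Secondary and tertiary granule genes summed to 11260 to 34430 FPKM in PMN-MDSCs and to 7225 to 21200 FPKM in WT Mo-MDSCs, which overlapped. Leaving out single libraries gave 6 to 9 members called lower, and the later library series gave 7. Of 22 genes of non-classical monocytes 7 were called lower and none higher, although the median was near that of all genes (-0.09). Among the 7, Pglyrp1 and Cd9 overlapped between the groups, and Nr4a1 was counted with the immediate-early genes below as well. In PMN-MDSCs Pglyrp1 was at 700 to 1267 FPKM and Cd9 at 185 to 249 FPKM, both above every Mo-MDSC library. Ace, angiotensin-converting enzyme, was at 93.4, 74.8 and 99.9 FPKM in WT and at 28.7, 50.9 and 39.5 FPKM in labelled DKO libraries (-1.2 ± 0.21, adjusted p = 0.0862). Without WT replicate 3 or labelled DKO replicate 3 the count of this list was 4.

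**Figure D4:**
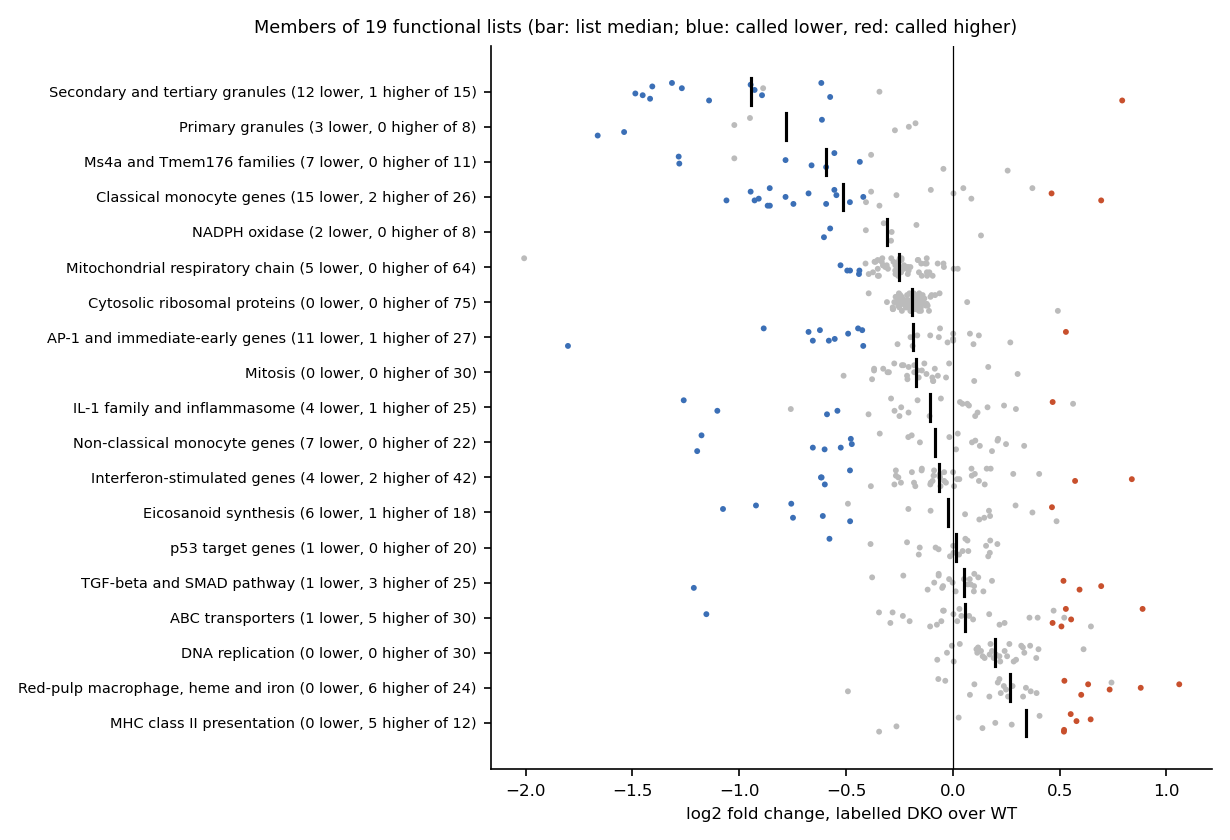
Log2 fold change of labelled DKO over WT Mo-MDSCs (horizontal axis) for each tested member of 19 functional lists, one list per row ordered by its median (black bar), with the numbers called lower (blue), called higher (red) and tested in the row label. The lists run from secondary and tertiary granule genes (12 of 15 called lower) to MHC class II genes (5 of 12 called higher).

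AP-1 and immediate-early genes, whose transcription responds within minutes to stimulation, were lower in part. Of 27 tested, 11 were called lower and 1 higher (median -0.19), and their summed FPKM was 1262 to 1476 in WT and 1023 to 1088 in labelled DKO libraries. Besides Fosb, Junb was at 183, 162 and 168 FPKM in WT and at 118, 123 and 94.2 FPKM in labelled DKO libraries (-0.62 ± 0.12, adjusted p = 0.112). Ier3 was at 12.4, 13.6 and 12.7 FPKM in WT and at 7.24, 8.38 and 5.53 FPKM in labelled DKO libraries (-0.89 ± 0.15, adjusted p = 0.0862). It lies 6.73 Mb from Cdkn1a, the only called member of the list on chromosome 17. The nuclear receptor Nr4a1 (-0.66 ± 0.13, adjusted p = 0.126) and Klf4 (-0.68 ± 0.14, adjusted p = 0.141), both needed for monocyte differentiation, were also called lower. Egr3 was called higher (0.53 ± 0.17, adjusted p = 0.242). Junb at 609 to 712 FPKM and the whole list at 3026 to 3228 FPKM were higher in PMN-MDSCs than in either Mo-MDSC group. Leaving out single libraries gave 8 to 11 members called lower and the later library series 7.

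The AP-1 sequence TGANTCA was searched on both strands in the 250 bases upstream of one RefSeq start site per gene, of which 8253 of the tested genes had one (GRCm38.p6). It was found for 31 of 354 genes called lower (8.76%), 10 of 199 called higher (5.03%), 4.2% of the tested genes and 6.83% of all 27025 genes with such a window. Fosb and Socs3 had no match there. The matches upstream of the called genes that the naming rule selects are shown, 4 for genes called lower and 5 for genes called higher, so that the sites can be compared, each with 10 bases on either side, 5′ to 3′ on the gene's strand and with the match in capitals.
Il1rn, called lower, chr2:24336709-24336735: tctgctagacTGAGTCAcgcctctgga
Cybb, called lower, chrX:9469447-9469473: tacttgtgacTGAATCAcaagatcttt
Olr1, called lower, chr6:129507209-129507235: ccgcgacggtTGAGTCAtcctctgcta
Ifitm3, called lower, chr7:141010833-141010859: gaagttccccTGATTCAcaatccttcc
Srxn1, called higher, chr2:152105412-152105438: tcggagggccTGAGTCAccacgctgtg
Srxn1, called higher, second site, chr2:152105469-152105495: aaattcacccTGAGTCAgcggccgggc
Cxcl10, called higher, chr5:92348947-92348973: ggagccttgcTGAGTCAtctccaaagt
Fcer2a, called higher, chr8:3694386-3694412: accacaggttTGATTCAgatccaggtt
Il5ra, called higher, chr6:106749120-106749146: atcaaacgttTGACTCActgtagggtt
The coding strand is plus for Il1rn and Srxn1 and minus for the others. The same core stood upstream of genes called in both directions. Other sequences were searched in the same windows. CCAAT was held by 32.5% of windows of genes called lower and 36.7% of genes called higher, against 37.3% of tested genes. The CHR element TTTGAA of cell cycle genes was held by 12.1% and 9.55%, against 10.5%. E2F sequences (TTTCGCGC or TTTGGCGC) were held by 3 and 2 windows, 0.847% and 1.01% against 1.44%, and the SMAD palindrome GTCTAGAC by 1 and 0. These matches are descriptions of the sequence and do not show binding.

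Genes for leukotriene signalling and reactive oxygen were called lower in part. Of 18 eicosanoid genes, 6 were called lower and 1 higher. Alox5, the 5-lipoxygenase that starts leukotriene synthesis, was at 13.4, 10.3 and 26.3 FPKM in WT and at 6.33, 9.86 and 6.11 FPKM in labelled DKO libraries (-1.08 ± 0.34, adjusted p = 0.228), and its activating protein Alox5ap at 496, 510 and 614 FPKM against 312, 461 and 304 FPKM (-0.61 ± 0.18, adjusted p = 0.208). The prostacyclin receptor Ptgir was at 10.3 to 14.8 FPKM in WT and 6.15 to 8.58 FPKM in labelled DKO libraries (-0.76 ± 0.17, adjusted p = 0.151). Pla2g7, which degrades platelet-activating factor, was called higher, at 249 to 270 FPKM in WT and 315 to 388 FPKM in labelled DKO libraries (0.46 ± 0.11, adjusted p = 0.159). Alox5 reached 89.7 to 130 FPKM in PMN-MDSCs, above all Mo-MDSC libraries, and was highest among Mo-MDSCs in WT replicate 3, the library with the largest sum of neutrophil markers. Only 2 eicosanoid genes were called lower within the later library series.

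NADPH oxidase genes numbered 2 called lower of 8. Cybb, the catalytic subunit that makes superoxide, was at 406, 291 and 417 FPKM in WT and at 264, 242 and 233 FPKM in labelled DKO libraries (-0.57 ± 0.15, adjusted p = 0.183), and the cytosolic subunit Ncf4 was called lower too (-0.60 ± 0.19, adjusted p = 0.228). The count was 1 without WT replicate 3, 4 without WT replicate 2 and 3 without WT replicate 1 or labelled DKO replicate 2. Of 20 T-cell suppression effectors 4 were called lower and 2 higher. The lower ones were S100a8, S100a9, Cybb and Lgals1, the last encoding galectin-1, at 122 to 143 FPKM in WT and 69.9 to 113 FPKM in labelled DKO libraries (-0.60 ± 0.17, adjusted p = 0.205). The count called lower was 2 without labelled DKO replicate 3, and the count called higher was 1 without WT replicate 1, WT replicate 3, labelled DKO replicate 1 or labelled DKO replicate 2. The higher ones were Hmox1 and Vsig4, a complement receptor that also restrains T cells (0.63 ± 0.26, adjusted p = 0.31). Members of the list thus moved in both directions, and the neutrophil markers S100a8 and S100a9 stood in it. Cybb was counted with the NADPH oxidase genes and with the secondary and tertiary granule genes as well.

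Respiratory chain genes were slightly lower across the list. Of 64 tested, 62 had a log2 fold change below 0 and 5 were called lower (median -0.25). Ndufb10, a subunit of complex I, was at 112, 112 and 124 FPKM in WT and at 78.8, 85.4 and 82.4 FPKM in labelled DKO libraries (-0.49 ± 0.08, adjusted p = 0.0794). It lies on chromosome 17 within 10 Mb of Cdkn1a, and the other 4 called members, Ndufa1, Atp5l, Ndufa5 and Sdhd, do not. The count ranged from 1 without labelled DKO replicate 3 to 16 without labelled DKO replicate 2, and was 13 without WT replicate 1 and 3 without WT replicate 3. Cytosolic ribosomal protein genes had 73 of 75 tested members below 0 (median -0.19) with none called, and after quantile normalization the median was -0.00, against -0.13 for the respiratory chain. Rpl26, which every cell uses, was listed at 0 in all 6 libraries, so a listed 0 may be a missing estimate.

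Genes of antigen presentation by MHC class II were called higher. Of 12 tested, 5 were called higher and none lower (median 0.34). Of these 5, H2-Ab1, H2-Aa and H2-Eb1 lie 5.17 to 5.21 Mb from Cdkn1a, within the 10 Mb where 16.7% of genes were called, so deletion and carried segment cannot be told apart for them. Ciita and Cd74 lie on other chromosomes. Ciita, the coactivator that switches the class II genes on, was at 42.6, 34.9 and 37.9 FPKM in WT and at 59.0, 54.4 and 67.4 FPKM in labelled DKO libraries (0.65 ± 0.11, adjusted p = 0.0862). H2-Ab1, a class II beta chain, was at 1086, 916 and 923 FPKM in WT and at 1510, 1431 and 1417 FPKM in labelled DKO libraries (0.58 ± 0.11, adjusted p = 0.119), and Cd74, the invariant chain, was called higher by 0.52 ± 0.13 (adjusted p = 0.175). For these genes every labelled DKO library was above every WT library. Whichever library was left out, 5 or 6 members were called higher, and the later library series gave 4. In WT PMN-MDSCs H2-Ab1 was at 1107 to 1269 FPKM and Cd74 at 4213 to 4730 FPKM, both above every WT Mo-MDSC library. Ciita was at 26.1 to 35.1 FPKM there. Genes of MHC class I presentation had none of 16 called. H2-Ab1, Ciita and Cd74 are made by B cells, dendritic cells and macrophages too. B-cell markers had 1 of 16 called higher (Fcer2a) and 15 of 16 above 0 (median 0.22), with sums of 1847 to 2047 FPKM in WT and 1970 to 2540 FPKM in labelled DKO libraries, which overlapped. Markers of conventional dendritic cells had 2 of 13 called higher (Itgae, Ccr7) and 1 lower (Flt3), with sums of 345 to 422 FPKM and 362 to 486 FPKM. In PMN-MDSC libraries these sums were 2555 to 2914 FPKM for B-cell and 585 to 669 FPKM for dendritic cell markers. The part of these cells in the class II values was not tested.

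Heme and iron genes of red-pulp macrophages, which clear old red cells in the spleen, were called higher in 6 of 24 and lower in none (median 0.27). Beside Hmox1 and Slc48a1, the ferritin heavy chain Fth1 was at 2148, 2369 and 2122 FPKM in WT and at 3629, 4147 and 3302 FPKM in labelled DKO libraries (0.73 ± 0.14, adjusted p = 0.108). Spic, the transcription factor of red-pulp macrophages, was at 290, 280 and 235 FPKM in WT and at 520, 390 and 328.5 FPKM in labelled DKO libraries (0.60 ± 0.17, adjusted p = 0.208), and the iron exporter Slc40a1 was called higher as well (0.52 ± 0.17, adjusted p = 0.246). Markers of these macrophages had 4 of 14 called higher, Hmox1, Spic, Slc40a1 and Vsig4, with sums of 5641 to 6834 FPKM in WT, 7104 to 10220 FPKM in labelled DKO and 8944 to 10040 FPKM in PMN-MDSC libraries. Vcam1, Cd5l, C1qa, Cd163 and Timd4, other genes of these cells, overlapped between the groups and were not called, and Cd163 had a log2 fold change of -0.04 ± 0.17. The log2 fold changes of these genes ran up to 0.34. Of the 14 macrophage markers tested, 13 were above 0 (median 0.26). In PMN-MDSCs Hmox1 was at 1866 to 1985 FPKM and Fth1 at 3923 to 4963 FPKM, both above every WT Mo-MDSC library. Of the markers, 2 were called higher without WT replicate 3 or labelled DKO replicate 1, 6 without WT replicate 2, and 7 after quantile normalization. The part of macrophage RNA in their values was not tested. Leaving out WT replicate 2 or labelled DKO replicate 3 gave 10 heme and iron genes called higher, leaving out WT replicate 3 gave 4, and quantile normalization gave 12.

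Efflux and redox genes were higher in part. Of 30 ABC transporters, 5 were called higher and 1 lower, and beside Abcc1 the lipid transporter Abca3 was at 20.8, 23.2 and 23.8 FPKM in WT and at 28.4, 34.2 and 35.5 FPKM in labelled DKO libraries (0.53 ± 0.11, adjusted p = 0.132). Abca3 lies on chromosome 17 within 10 Mb of Cdkn1a, unlike the other 4. The count was 9 without WT replicate 2 and 3 without WT replicate 3. Of 29 glutathione and oxidative stress genes, 4 were called higher and 1 lower. Gclm, the regulatory subunit of the enzyme that begins glutathione synthesis, was at 24.3, 39.1 and 25.8 FPKM in WT and at 53.01, 68.9 and 55.5 FPKM in labelled DKO libraries (1.01 ± 0.19, adjusted p = 0.111), with Gss, the enzyme of the next step (0.46 ± 0.13, adjusted p = 0.202), and Srxn1, which restores oxidised peroxiredoxins (0.51 ± 0.17, adjusted p = 0.252), also called higher. Prdx5, a mitochondrial peroxiredoxin, was called lower (-0.74 ± 0.18, adjusted p = 0.163). The count of genes called higher was 7 without WT replicate 2 or labelled DKO replicate 1, and 2 without labelled DKO replicate 3. Among 24 genes of folate metabolism only Ggh and, in the other direction, the macrophage folate receptor Folr2 were called (0.97 ± 0.26, adjusted p = 0.199).

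Cytokine and receptor genes moved singly. Of 12 chemokine ligands 3 were called in each direction, and Ccl2, which recruits monocytes, was at 0.925, 0.497 and 1.04 FPKM in WT and at 2.63, 3.88 and 1.66 FPKM in labelled DKO libraries (1.59 ± 0.37, adjusted p = 0.158). The chemokine ligands called lower numbered 1 without WT replicate 1, labelled DKO replicate 1 or labelled DKO replicate 2, and those called higher 1 without WT replicate 2 or labelled DKO replicate 3. In the IL-1 list 4 of 25 genes were called lower, Il1rn, Il18rap, Myd88 and Casp4, and 1 higher, the receptor Il1r1. Of 16 C-type lectins 3 were called lower, Clec5a and Clec7a among them, and 2 higher, Clec4d and Colec12 (median -0.11). Clec4d was at 5.54 to 6.55 FPKM in WT and 9.60 to 12.9 FPKM in labelled DKO libraries (0.91 ± 0.14, adjusted p = 0.0602), while its level in PMN-MDSCs was 309 to 417 FPKM. The lectins called lower numbered 5 without WT replicate 2 or labelled DKO replicate 2, and 1 without labelled DKO replicate 3. Transcription factors of myeloid lineages had 4 called lower (Cebpe, Runx2, Klf4, Sfpi1) and 4 higher (Maf, Spic, Bach2, Nr1h3) of 29. Maf, a factor of resident macrophages, was at 45.7, 37.5 and 29.2 FPKM in WT and at 74.2, 60.9 and 54.9 FPKM in labelled DKO libraries (0.77 ± 0.18, adjusted p = 0.156). Interferon-stimulated genes had 4 called lower and 2 higher of 42, TGF-beta and SMAD genes 1 lower (Id1) and 3 higher of 25, Thbs1 among them, and growth factor and cytokine receptors 3 lower of 23 (Flt3, Csf2rb, Csf2rb2). The receptors called lower numbered 7 without WT replicate 2 or labelled DKO replicate 2 and 1 without WT replicate 3, and 1 TGF-beta gene was called higher without WT replicate 1.

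The cell cycle machinery, downstream of p16 and p21, showed few called genes. Of 5 tested CDK inhibitors, Cdkn2d was called lower, at 41.6, 42.9 and 63.3 FPKM in WT and at 26.9, 35.5 and 28.1 FPKM in labelled DKO libraries (-0.69 ± 0.18, adjusted p = 0.187). Without labelled DKO replicate 2, 3 CDK inhibitors were called lower, and without WT replicate 2, 2 were. Cdk6, a kinase that p16 binds, was called higher, at 3.20 to 4.20 FPKM in WT and 4.45 to 6.20 FPKM in labelled DKO libraries (0.50 ± 0.16, adjusted p = 0.24), the only one of 18 G1 cyclin, CDK and RB family genes. None of 30 DNA replication genes was called in the comparison of all 6 libraries, although 27 were above 0 (median 0.20), and none of 30 mitosis genes was called, with 27 below 0 (median -0.17). Pcna, the replication clamp, overlapped between the groups, at 115, 152 and 128 FPKM in WT and 112, 168 and 151 FPKM in labelled DKO libraries (0.11 ± 0.17). Single libraries moved these lists. Without labelled DKO replicate 1, 15 replication genes were called higher and the median of the mitosis list was 0.05. Without WT replicate 2, 3 replication genes were called higher, and without labelled DKO replicate 2, 5 mitosis genes were called lower. Mki67 was at 35.2 FPKM in labelled DKO replicate 1 and at 66.9 and 73.0 FPKM in replicates 2 and 3. Erythroid markers, from cells that also divide, were lowest there among the labelled DKO libraries too, with Gata1 at 9.38 FPKM in labelled DKO replicate 1 and at 21.7 and 22.2 FPKM in the others, and at 5.19, 18.6 and 6.42 FPKM in WT. None of 19 erythroid markers was called in the main fit, and all 19 were above 0 (median 0.63). Without WT replicate 2, 15 were called higher, and 10 were without labelled DKO replicate 1. With a replicate block 13 were called higher. The part of erythroid RNA in the replication values was not tested.

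Of 20 p53 target genes only Bbc3, the BH3-only death gene PUMA, was called, at 7.48 to 9.55 FPKM in WT and 4.57 to 6.73 FPKM in labelled DKO libraries (-0.58 ± 0.16, adjusted p = 0.202). Of 12 BCL2 family genes 1 was called lower, Bad (-0.51 ± 0.14, adjusted p = 0.201). No gene was called in the lists for cathepsins and lysosome (30 tested), unfolded protein response (26), heat-shock chaperones (14), proteasome (31), ribosome biogenesis (32), and stefins and cystatins (4). Glycolysis had 1 called lower of 29, cholesterol synthesis 1 higher of 28, integrins 1 lower of 22, Fc gamma receptors 1 lower of 7 (Fcgr2b), Schlafen genes 1 lower of 8, histones 1 lower of 10 (H1f0), inflammatory cytokines 2 lower of 22 (Socs3, Traf1), Toll-like receptors 1 lower and 2 higher of 18, scavenger receptors 2 lower and 4 higher of 22, and complement and coagulation 4 lower and 1 higher of 19. Single libraries moved several of these counts. Glycolysis genes called lower numbered 6 without WT replicate 2 or labelled DKO replicate 2, and 0 without WT replicate 3, labelled DKO replicate 1 or labelled DKO replicate 3. Scavenger receptors called higher numbered 1 without WT replicate 3, and 2 without WT replicate 1 or any 1 labelled DKO library. Inflammatory cytokine genes called lower numbered 4 without WT replicate 2, and 1 without WT replicate 1, WT replicate 3, labelled DKO replicate 1 or labelled DKO replicate 2. Complement and coagulation genes called lower numbered 2 without WT replicate 3, and Toll-like receptor genes called higher 0 without it. Without labelled DKO replicate 2, 3 proteasome genes were called lower and 3 cholesterol synthesis genes higher, and without WT replicate 2, 3 integrin genes were called lower.

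**Figure D5:**
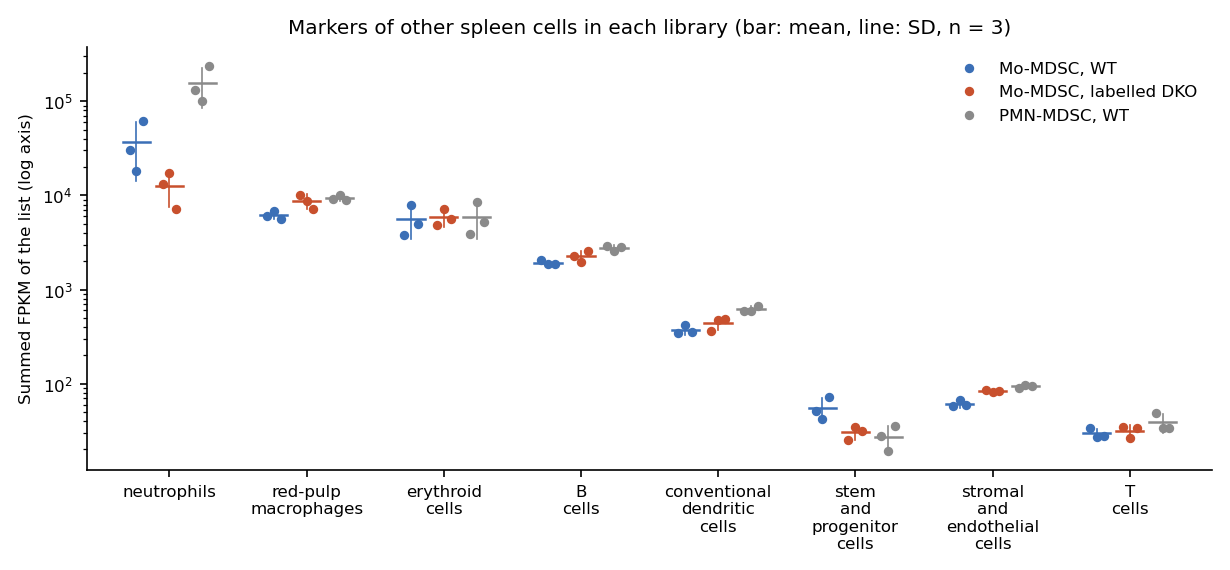
Summed FPKM (log axis) of marker lists of other spleen cells in each library, with WT Mo-MDSCs in blue, labelled DKO Mo-MDSCs in red and WT PMN-MDSCs in grey; horizontal bars are means and vertical lines SDs of 3 libraries. Neutrophil sums are 18030 to 62220 in WT and 7154 to 17280 in labelled DKO libraries, red-pulp macrophage sums are 5641 to 6834 and 7104 to 10220, and erythroid and B-cell sums overlap.

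Markers of other cells were also measured. T-cell markers summed to 26.3 to 34.8 FPKM in the 6 libraries, with 2 of 10 called higher (Cd3g, Cd8a), and NK-cell markers to 12.4 to 18.3 FPKM, with Nkg7 called lower of 3 tested. Without WT replicate 2, WT replicate 3, labelled DKO replicate 1 or labelled DKO replicate 3, 1 T-cell marker was called higher. Plasma-cell markers had none of 7 called, with sums of 1141 to 2330 FPKM in WT and 1136 to 1207 FPKM in labelled DKO libraries, and plasmacytoid dendritic cell markers none of 6, with sums of 470 to 512 FPKM and 519 to 561 FPKM. Of platelet markers Pf4 and of basophil, mast cell and eosinophil markers Il5ra were called higher, of 3 and 4 tested, and Tpsb2 was listed at 0 in all libraries. Stem and progenitor markers had 3 of 9 called lower, Elane, Prtn3 and Flt3, with sums of 42.2 to 72.5 FPKM in WT and 24.9 to 34.9 FPKM in labelled DKO libraries, 5 called lower without WT replicate 2, and the defining genes Cd34 and Hlf were below 1 FPKM in all 6. Sex-linked genes had none of 4 called.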

How the data were processed

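Libraries were made from total RNA with a stranded mRNA kit, and the files were made by the authors, whose notes name TopHat2 2.0.13, Bowtie2 2.2.3, SAMtools 0.1.19, Cuffnorm 2.2.1 and the mouse build mm10. The deposited values are FPKM per gene symbol, 1 table per library, scaled across libraries by the authors. They are not counts, so the read total behind a value is unknown (steps between low values put relative depth at 1.0 to 1.31 over these 6 libraries), a count model could not be the main test, and low values are the least certain. The 6 Mo-MDSC libraries had a total FPKM of 494252 to 618250, and 11322 to 11418 genes at 1 FPKM or more. Whether strand was used in counting is not given in the sources used here.

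Values were tested as log2(FPKM + 0.1) with limma 3.58.1 in R 4.3.3 (lmFit, eBayes with trend, 2-sided), with Benjamini-Hochberg adjustment over the 11451 genes. The study's methods name no block, so none was used. The pseudocount understates the change of low genes. The script was tested on simulated data. Samples were grouped by genotype and cell type in the labels. The Mo-MDSC libraries carry numbers 238 and 239 for replicate 1 and numbers from 327 to 331 for replicates 2 and 3. The higher numbers were taken here as a later library series, a split made from the numbers alone and not a stated batch. Named genes are the deleted genes, Tmem176b, Abcc1, Ggh, Il1rn and Fosb, every gene with an adjusted p below 0.05, up to 4 called members of each list with the largest change and its most abundant member, and cell markers. Bach2, Cd9, Egr3, Gss, Il1r1, Junb, Lgals1, Nr1h3, Pla2g7, Rab44, S100a4 and Sfpi1 are named outside this rule, after their values were seen. The genes, the 46 functional lists, the 13 marker lists and the sex-linked list were chosen with earlier results of these data known. Of 23284 symbols, 20911 matched the annotation by symbol and 1915 by an older symbol, which gave positions. Alternatives covered pseudocounts, filters, scaling, covariates and left-out libraries. Promoter sequence is from RefSeq (GRCm38.p6).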

Additional observations from a re-analysis of the deposited data

How the results depend on the processing

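Over the 6 fits without 1 library, 333 to 716 genes were called lower, 187 to 542 were called higher, 1 to 8 fell and 6 to 15 rose by adjusted p. Tmem176b, Ppp2r1b, H2-T24, H2-T10, 9030025P20Rik and Gm10653 kept an adjusted p below 0.05 in all 6 of these fits. Prss29 and Tmem176a did so in 3, and Ggh and Slc48a1 in 2. Fosb, Il1rn, Socs3, Abcc1, Hmox1, Acta2, Trpv4, Glo1, Bex6, Gm8801 and 9130008F23Rik did so in only 1. Clec16a, Dnahc8, Efr3b, Ly6i, Padi2, Tmem64, 3110052M02Rik and 4930506M07Rik did so in none. Without variance moderation, 299 genes were called lower and 188 higher, and 0 fell and 0 rose by adjusted p, with 1326 genes at an unadjusted p below 0.05. Without a filter on low values 458 were called higher, 4 fell and 9 rose. With all 9 samples in 1 limma fit 26 fell, and without chromosomes 4 and 17, 4 fell and 6 rose. Within the later library series, 0 fell and 7 rose by adjusted p in limma, against 413 called lower at an unadjusted p. The cause of these differences was not tested, apart from the fewer genes or samples in some fits. None of 174 genes changed direction in these alternatives. These were the named genes and list members that were called or passed the adjusted threshold in the main fit. They were picked by their change in the same data, so a reversal was unlikely from the start. Samples with the same replicate number correlated at 0.348, 0.226 and -0.07 in their deviations from the group means. Those with unlike numbers correlated at -0.388 to 0.174. WT and labelled DKO libraries of the same replicate number have consecutive library numbers, but no pairing is stated. The main fit did not take them as pairs, and these correlations do not settle whether they are. With a replicate block, 515 genes were called lower and 385 higher, and 6 fell and 14 rose by adjusted p. With this block 13 of 19 erythroid markers were called higher, against 0 without it, as were 3 stromal markers against 1 and 8 ABC transporters against 5. Labelled DKO replicate 3 correlated best with WT replicate 2. FPKM values carry no read counts, so the number of reads behind low genes is unknown.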
